A study of Mus musculus with 12 samples.

Results

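Aminoacyl-tRNA synthetases join each amino acid to its transfer RNA, and the transcripts of the cytosolic and mitochondrial enzymes were followed in mouse gastrocnemius, a calf muscle. The members were taken from a fixed list of 36 genes, in which the mitochondrial enzymes carry the suffix 2. Each gene was represented by its probeset with a single gene symbol, and where there were several, by the one with the highest mean over all 12 arrays. Such a probeset was found for 34 of the 36 genes, among 22180 genes in all, and these were 18 cytosolic and 16 mitochondrial synthetases. Aars and Dars, the cytosolic alanyl and aspartyl enzymes, had none and were not analysed here. Nars2 was the only member with more than 1 probeset, and the listed Mars is now named Mars1. The genes with the lowest 40% of mean values, below a log2 value of 5.32, were not tested. Pars2, the mitochondrial prolyl enzyme, fell just under this limit with a mean of 5.31, so 33 members were tested among 13308 genes.

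The series compared wild-type mice with mice lacking ERRα (gene Esrra), a nuclear receptor without a known natural ligand that is best known for turning on oxidative metabolism genes in muscle. All animals were labelled as males of the FVB strain and were 2 to 3 months old, and the genotype of the mutants is given as ERRα-null. Muscle was taken from sedentary mice or from mice 2 h after running on a treadmill until exhausted, with 3 arrays, labelled as biological replicates, in each of the 4 groups. The values are log2 expression values from Affymetrix Mouse Gene 2.0 ST arrays, on which a difference of 1 is a 2-fold change, and p-values measure only the spread between these arrays.

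Synthetases fall into class I and class II by the fold of their catalytic domain, and mammalian cells have largely separate sets for the cytosol and the mitochondrion. In the cytosol several of them sit in a multisynthetase complex held together by scaffold proteins. Uncharged transfer RNA activates the kinase GCN2, which phosphorylates the initiation factor eIF2α and favours translation of the transcription factor ATF4. ATF4 in turn is known to activate genes for amino acid synthesis and import and many cytosolic synthetase genes through C/EBP-ATF response elements. Mitochondrial synthetases are encoded in the nucleus, charge the mitochondrial transfer RNAs and serve the translation of respiratory chain subunits, which muscle needs in large amounts.

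Promoter sequences are shown first because a C/EBP-ATF core set some of the cytosolic genes apart from the mitochondrial ones. They come from RefSeq, assembly GRCm38.p6, as windows from 250 bases before to 50 bases after each gene start, and 27 of the 36 listed genes matched with 28 windows. The core TGATGNAA was searched on both strands. It was found in 3.97% of all 32851 windows, in 5 of the 13 cytosolic synthetase windows (38.5%) and in 0 of the 15 mitochondrial windows. The 4 cytosolic carriers with values on the arrays were Gars, Iars, Tars and Yars. The core bound by ERR receptors, AAGGTCA, also searched on both strands, was found in 4.72% of all windows and in 0 of the 28 synthetase windows. A match is a description of the letters and not a site of binding, and a window without one says nothing about a factor. The first 4 lines below give the 100 bases before the start of Gars (chr6:55037901-55038000, plus strand), Tars (chr15:11399659-11399758, minus strand), Asns (chr6:7693210-7693309, minus strand) and Yars2 (chr16:16302865-16302964, plus strand). Asns, the asparagine synthetase of amino acid synthesis and a known ATF4 target, stands for comparison, and Yars2 is the mitochondrial member described with the genotypes. The other 2 lines give 30 bases around the first match of Iars (chr13:49682126-49682155, plus strand) and Yars (chr4:129189895-129189924, plus strand). These matches lie after the gene start, with the first base at position 8 for Iars and 4 for Yars. All lines are written 5′ to 3′ on the strand of the gene, and capitals mark the core, on either strand.
Gars: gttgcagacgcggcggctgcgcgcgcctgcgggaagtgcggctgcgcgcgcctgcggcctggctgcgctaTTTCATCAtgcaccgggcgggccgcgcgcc
Tars: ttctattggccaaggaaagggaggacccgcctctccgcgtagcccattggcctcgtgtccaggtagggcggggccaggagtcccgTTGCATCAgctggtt
Asns: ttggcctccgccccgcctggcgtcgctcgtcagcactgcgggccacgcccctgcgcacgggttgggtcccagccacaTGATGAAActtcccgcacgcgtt
Yars2: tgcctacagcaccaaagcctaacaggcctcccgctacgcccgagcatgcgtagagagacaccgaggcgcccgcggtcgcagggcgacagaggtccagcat
Iars: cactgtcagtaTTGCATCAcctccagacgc
Yars: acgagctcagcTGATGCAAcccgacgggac

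Groups follow the sample titles. Another label, the source name, gives the opposite exercise state for the 3 sedentary ERRα-null and the 3 exercised wild-type arrays. Esrra ran from 7.41 to 7.63 on the wild-type arrays and from 6.55 to 6.89 on the ERRα-null arrays without overlap. On 3 arrays, exercised wild type 3 and exercised ERRα-null 2 and 3, the female transcript Xist was at 7.82 to 7.90, against 3.66 to 4.30 on the other 9 arrays, although all mice were labelled male. Mean levels of 11 skeletal muscle markers were 12.76 to 12.92 on all arrays. Marker means of liver, adipocytes and lymphocytes varied most among sedentary arrays. Those of macrophages and neutrophils, endothelial cells and fibroblasts, and erythroid cells varied most among exercised wild-type arrays (SD 0.42, 0.43 and 0.50). On exercised wild type 2 the macrophage and neutrophil mean (6.58) and the erythroid mean (6.04) were the highest of all arrays. The endothelial and fibroblast mean (8.87) was the lowest there. The mean of 11 liver markers was 5.34 to 10.29 on sedentary and 5.61 to 7.74 on exercised arrays, that of 11 adipocyte markers 7.05 to 9.98 and 7.03 to 7.75, and that of 9 lymphocyte markers 5.38 to 7.81 and 5.21 to 5.70. For exercise averaged over genotypes, 0 of 10 tested liver, 2 of 11 adipocyte and 0 of 6 lymphocyte markers were called, the 2 lower, against 3.43% of all genes. All of these tested markers were below 0, with medians of −1.15, −0.87 and −1.02, beside 48.0% above 0 over all genes. At an unadjusted p under 0.05, 0 liver, 5 adipocyte and 5 lymphocyte markers were lower, against 12.9% of all genes. Their part in the results was not tested beyond a fit that holds the liver, adipocyte and lymphocyte means as covariates, called the fit with tissue scores. In whole muscle, fewer cells of a type and less RNA per cell cannot be told apart. Where leaving out the 3 arrays of high Xist ended a call described here, the value without them is given.

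**Figure D1:**
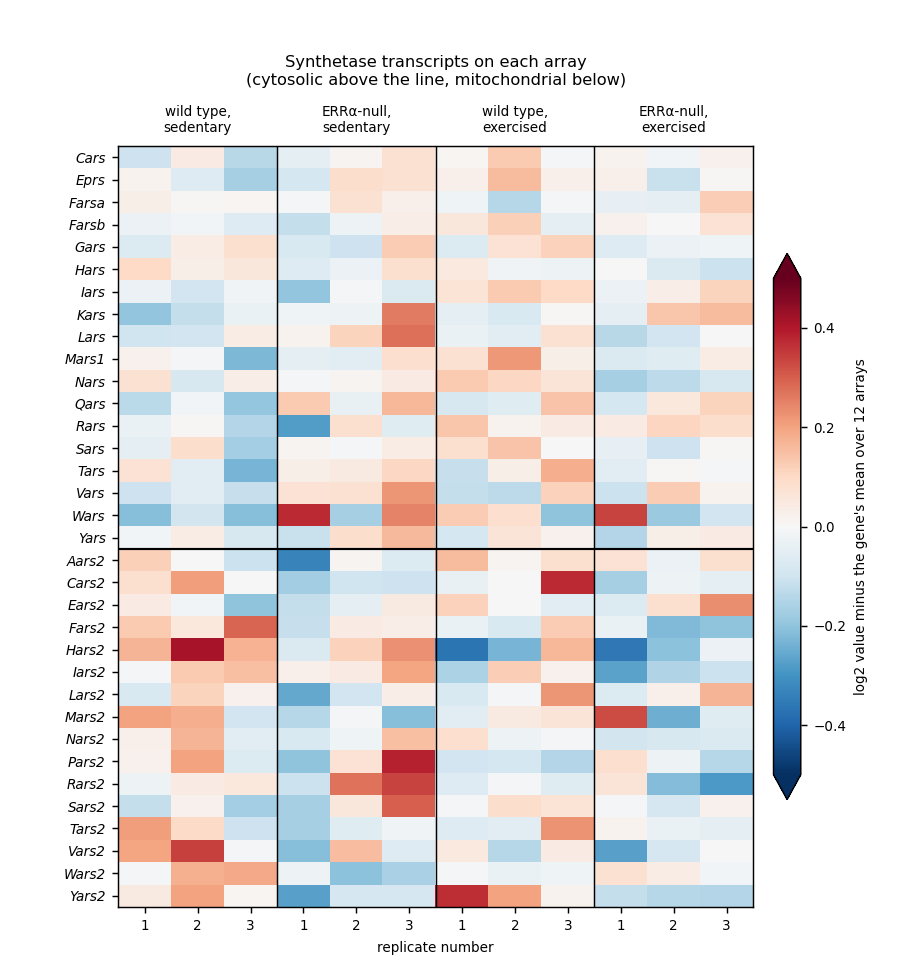
Each row is a synthetase with a probeset (18 cytosolic above the line, 16 mitochondrial below it) and each column an array, grouped by genotype and exercise state; colour gives the log2 value minus the mean of that gene over the 12 arrays, with the scale ending at −0.5 and 0.5. Most cells are pale, with deeper ones in single arrays of Wars, Cars2, Hars2, Pars2 and Yars2 among others, and no group is of one colour throughout.

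No synthetase passed an adjusted p of 0.05 in any of the 7 comparisons made. These were the genotype difference at rest and after running, the exercise difference in wild type and in mutants, their interaction, and each factor averaged over the other. The intervals, taken gene by gene from this fit, show how closely each difference was measured, least closely for the interaction. They make no allowance for the number of members or for the tissue markers. With the tissue scores Hars2 in wild type was at −0.99, outside its interval of −0.71 to −0.08. The 95% interval of the difference lay within −0.5 and 0.5 log2 for 31 of the 33 members for exercise in wild type, for 31 for exercise in ERRα-null muscle, for 31 for genotype in sedentary muscle and for 32 for genotype after exercise. It did so for 33 for genotype averaged over states and for 32 for exercise averaged over genotypes. For the interaction it did so for 26, with limits reaching −0.79 and 0.63. Members at an unadjusted p under 0.05 are named below with that share over all genes.

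After running, the cytosolic synthetases of wild-type muscle lay slightly above rest. Of the 18 cytosolic synthetases 16 had a difference above 0, with a median of 0.10 log2, and of the 15 tested mitochondrial ones 6 did, with a median of −0.03. Over all genes tested, 47.7% of differences were above 0 and the median was −0.01. With the tissue scores in the fit, 10 of the 18 cytosolic differences were above 0, with a median of 0.02, and 4 of the 15 mitochondrial ones, with a median of −0.20. No member was called, against 3.43% of all genes. At an unadjusted p under 0.05, 1 of 33 members was above, Iars, against 7.51% of all genes, and 1 below, Hars2, against 8.61%. The wild-type arrays did not overlap between states for 4 members on the higher side, Eprs, Iars, Mars1 and Rars, against 10.0% of all genes, and for 2 on the lower side, Farsa and Hars2, against 11.0%. The members' counts, 4 and 2 of 33, were near those shares.

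All 4 members on the higher side, a count near the share over all genes, belong to the multisynthetase complex. This grouping was read from the same arrays that picked the 4, and it was not tested. The 7 complex synthetases measured were Eprs, Iars, Kars, Lars, Mars1, Qars and Rars, and all 7 had a difference above 0 in wild type, from 0.05 to 0.18, with a median of 0.12. Among the 11 cytosolic synthetases outside the complex, 9 were above 0, with a median of 0.08. With the tissue scores in the fit, the complex median was 0.04 with 5 of 7 above 0.

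Iars encodes the cytosolic isoleucyl enzyme. Its log2 values were 9.86, 9.80 and 9.87 in sedentary and 9.96, 10.02 and 9.99 in exercised wild-type muscle, and 9.69, 9.88 and 9.82 and then 9.86, 9.92 and 10 in ERRα-null muscle. The wild-type arrays did not overlap between states, while in ERRα-null muscle the lowest exercised array lay below the highest sedentary one. The exercise difference was 0.15 ± 0.07 log2 (SE) in wild type (adjusted p = 0.299), 0.13 ± 0.07 in ERRα-null muscle (adjusted p = 0.430) and 0.14 ± 0.05 averaged over genotypes (1.10-fold, adjusted p = 0.103). The average was 0.10 without the 3 arrays of high Xist and 0.04 with the tissue scores.

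Rars, the arginyl enzyme, had values of 8.63, 8.66 and 8.51 in sedentary and 8.80, 8.68 and 8.70 in exercised wild-type muscle. In ERRα-null muscle they were 8.38, 8.74 and 8.60 and then 8.70, 8.77 and 8.75. The exercised arrays were the more even in both genotypes, and the ERRα-null groups overlapped. Averaged over genotypes the difference was 0.14 ± 0.06 log2 (adjusted p = 0.206). Mars1, the methionyl enzyme, went from 8.45, 8.42 and 8.20 to 8.51, 8.65 and 8.46 in wild type, a difference of 0.18 ± 0.09 (adjusted p = 0.340). Eprs, which charges both glutamate and proline, went from 10.11, 10.03 and 9.93 to 10.12, 10.25 and 10.12, a difference of 0.14 ± 0.08 (adjusted p = 0.398). For Eprs the highest sedentary array, at 10.11, nearly met the lowest exercised one, at 10.12. The scaffold genes Aimp1 and Eef1e1 had wild-type differences of 0.07 each.

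In ERRα-null muscle the cytosolic synthetases did not sit above rest after running. Of the 18, 4 had a difference above 0, with a median of −0.05, and of the 15 mitochondrial ones 8 did, with a median of 0.01, beside 47.2% above 0 and a median of −0.01 over all genes. Under alternative fits the cytosolic median ran from −0.07 to −0.01, with 3 to 7 above 0. The mitochondrial median ran from −0.16 to 0.04, with 5 to 9 above 0. No member was called, against 0.639% of all genes. At an unadjusted p under 0.05 there were 0 members on the higher side, against 5.79% of all genes, and 4 on the lower side, against 7.30%. They were Nars (−0.14 ± 0.06), Lars (−0.21 ± 0.08), Iars2 (−0.26 ± 0.09) and Rars2 (−0.31 ± 0.12), with adjusted p from 0.237 to 0.332. The arrays did not overlap for 1 member on the higher side, Wars2, against 8.99% of all genes, and for 4 on the lower side, Lars, Nars, Tars and Iars2, against 10.0%. Exercised ERRα-null replicates 2 and 3 are arrays of high Xist. Without them this group is 1 array, assumed in the fit to vary like the others, and the differences were −0.18 for Nars, −0.27 for Lars, −0.35 for Iars2 and −0.10 for Rars2.

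**Figure D2:**
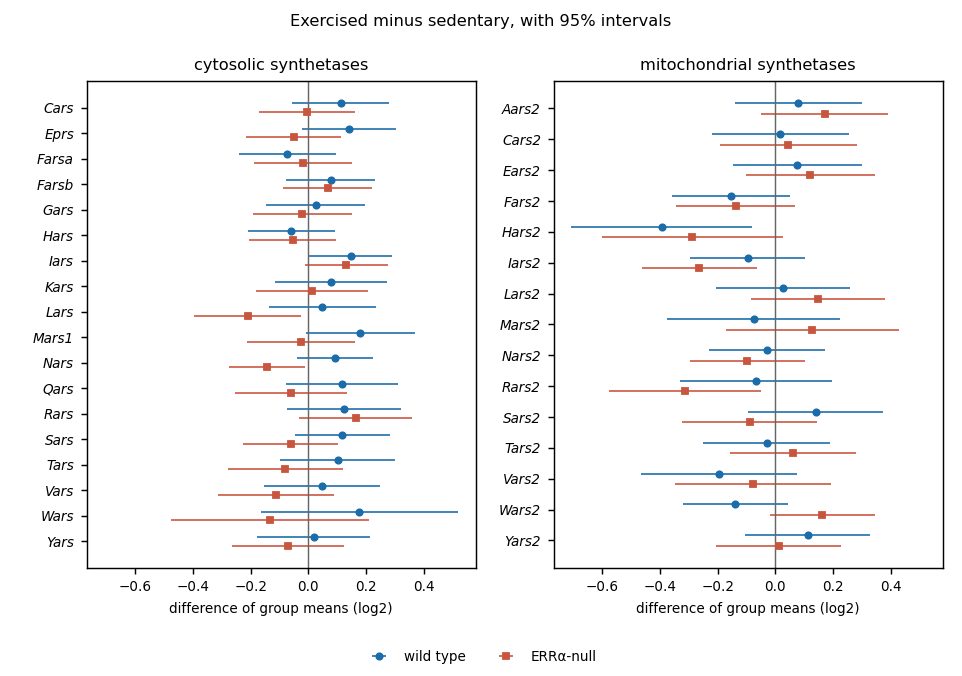
Points are the exercised minus sedentary differences of group means in log2 for the 33 tested synthetases, in wild-type (circles) and ERRα-null muscle (squares), with 95% intervals from the model over 3 arrays per group. In wild type 16 of 18 cytosolic points lie right of 0, in ERRα-null muscle 4 of 18.

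Some regulators of the amino acid response were called in wild type, and others were not. Of the 8 genes for eIF2α kinases and their partners, 5 were above 0 after running, with a median of 0.07. Of these, 2 rose, Impact and Ppp1r15a, against 2.22% of all genes. The arrays did not overlap for 2 of the 8 on the higher side, against 10.0% of all genes, and for 2 on the lower side, against 11.0%. Eif2ak4, the gene of GCN2, had a difference of −0.24 ± 0.11 (adjusted p = 0.299). Atf4, which encodes the transcription factor itself, was at 9.07, 9.08 and 8.85 in sedentary and 9.63, 9.69 and 9.63 in exercised wild-type muscle. In ERRα-null muscle it was at 9.03, 8.97 and 9.05 and then 9.29, 9.27 and 9.26. The groups did not overlap in either genotype, and the exercised wild-type arrays were the highest of all. Atf4 rose by 0.65 ± 0.07 log2 in wild type (1.57-fold, adjusted p = 0.000311), while the difference in ERRα-null muscle was 0.26 ± 0.07 (adjusted p = 0.142). The difference between genotypes after exercise was −0.38 ± 0.07 (adjusted p = 0.0521), which passed the threshold without sedentary wild type 3 (adjusted p = 0.0248) or sedentary ERRα-null 1 (0.0470). The interaction was −0.39 ± 0.10 (adjusted p = 0.608). With the tissue scores the wild-type difference was 0.63 (adjusted p = 0.136). Without the 3 arrays of high Xist it was 0.66 (adjusted p = 0.0108).

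Impact encodes an inhibitor of GCN2 activation. It was at 7.60, 7.52 and 7.63 in sedentary and 9.72, 10.31 and 9.71 in exercised wild-type muscle, and at 7.38, 7.63 and 7.73 and then 7.85, 8.81 and 8.27 in ERRα-null muscle. All exercised wild-type arrays stood above all ERRα-null arrays. Impact rose by 2.33 ± 0.21 log2 in wild type (5.04-fold, adjusted p = 9.8e-05). Its difference in ERRα-null muscle was 0.73 ± 0.21 (adjusted p = 0.162), also without overlap of arrays. After exercise Impact was lower in ERRα-null muscle by −1.61 ± 0.21 (adjusted p = 0.0227). Its interaction was −1.60 ± 0.30 (adjusted p = 0.329). Leaving out single arrays ended the genotype call after exercise for 2 of them, exercised wild type 1 (adjusted p = 0.0693) and exercised ERRα-null 3 (adjusted p = 0.0904). That call also ended with only the arrays compared in the fit (adjusted p = 0.0756). Ppp1r15a, the phosphatase subunit that reverses eIF2α phosphorylation, rose by 0.85 ± 0.10 in wild type (adjusted p = 0.000629). Its difference in ERRα-null muscle was 0.18 ± 0.10 (adjusted p = 0.498).

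Of the 26 tested amino acid response genes, a list that holds Atf4, 5 rose in wild type, against 2.22% of all genes, and 0 fell; 20 were above 0 and the median difference was 0.15. Besides Atf4 the 5 were Slc38a2, an amino acid transporter of the SNAT2 type, Slc7a5, the light chain of the large neutral amino acid transporter, Cebpb, a partner of ATF4, and Eif4ebp1, a repressor of cap-dependent translation. Slc38a2 went from 9.52, 9.43 and 9.37 to 11.64, 11.32 and 11.19 in wild type and from 9.71, 9.23 and 9.81 to 10.73, 11.04 and 10.67 in ERRα-null muscle. It rose in both genotypes without overlap of arrays, by 1.94 ± 0.16 (3.84-fold, adjusted p = 4.06e-05) and 1.23 ± 0.16 (2.34-fold, adjusted p = 0.00278). It was the 1 gene of this list called as higher in ERRα-null muscle, against 0.383% of all genes, and without the 3 arrays of high Xist that call ended (adjusted p = 0.179). There 12 of 26 were above 0 and the median was −0.01. In wild type Slc7a5 rose by 1.69 ± 0.37 (adjusted p = 0.0276), Cebpb by 1.01 ± 0.21 (adjusted p = 0.0236) and Eif4ebp1 by 0.64 ± 0.12 (adjusted p = 0.0151). In ERRα-null muscle their differences were 0.71 ± 0.37, 0.25 ± 0.21 and 0.08 ± 0.12, none of them called. The 3 wild-type calls each rest on single arrays, and that of Slc7a5 ended without the 3 arrays of high Xist (1.51, adjusted p = 0.135). Adjusted p was 0.0720 to 0.102 for Slc7a5 without sedentary wild type 1, 2 or 3 or exercised wild type 1 or 3. It was 0.0631 to 0.0876 for Cebpb without sedentary wild type 1 or 3 or exercised wild type 2, and 0.0516 to 0.0567 for Eif4ebp1 without sedentary or exercised wild type 1 or 2. With the tissue scores, the wild-type adjusted p was 0.179, 0.569 and 0.121 for these 3 genes, 0.0985 for Impact, 0.162 for Ppp1r15a and 0.008 for Slc38a2. Asns, whose promoter carries the core shown above, had a wild-type difference of 0.15 ± 0.27 (adjusted p = 0.843). Vldlr, a lipoprotein receptor on the same list, fell by 0.51 ± 0.14 averaged over genotypes (adjusted p = 0.0499), but with the tissue scores the value was 0.20, and without the 3 arrays of high Xist adjusted p was 0.441. That call ended without any single array other than sedentary wild type 1, sedentary ERRα-null 2 and replicate 1 of either exercised group, with adjusted p from 0.0709 to 0.121.

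Synthetases listed as ATF4 targets showed no such size. All 12 that were tested were above 0 in wild type, from 0.02 to 0.18, with a median of 0.11. In ERRα-null muscle 1 of the 12 was above 0 and the median was −0.07. The wild-type count became 7 of 12, with a median of 0.04, with the tissue scores. The 6 cytosolic synthetases outside this list had a wild-type median of 0.08, with 4 above 0. The 4 measured carriers of the promoter core, Gars, Iars, Tars and Yars, had a wild-type median of 0.06, and the 7 cytosolic members with a window and no match had 0.12. The carriers' median was thus not the larger one.

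**Figure D3:**
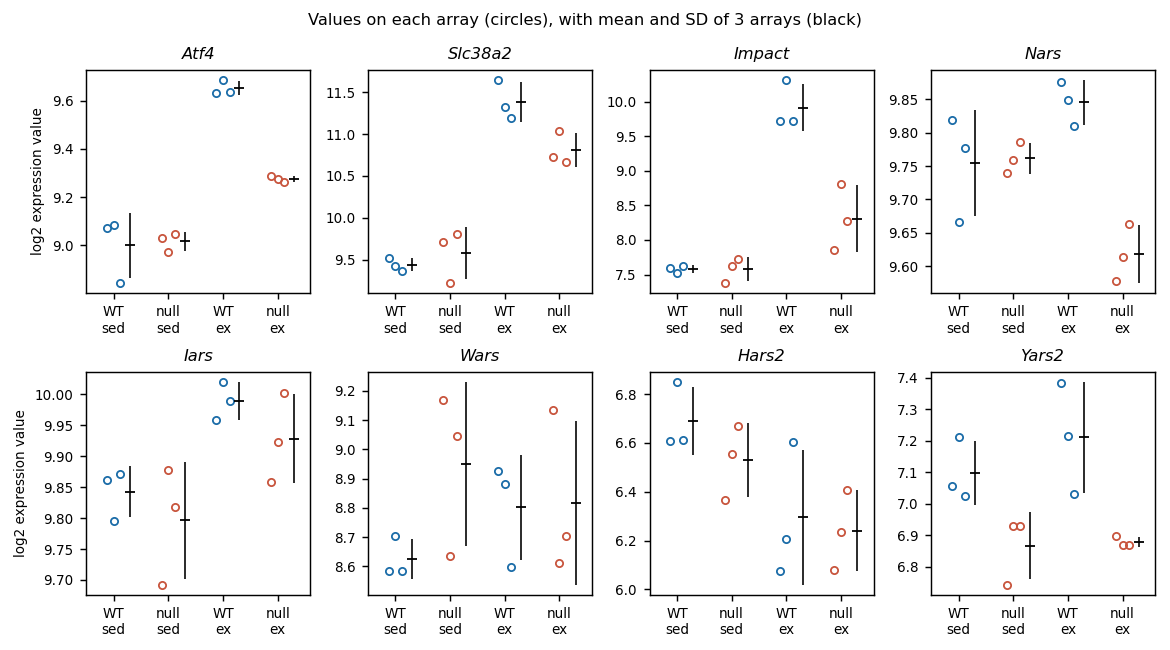
Circles are log2 values on each array in the 4 groups (wild type blue, ERRα-null red; sedentary and 2 h after exercise), with the mean and SD of 3 arrays in black; each panel has its own axis, which does not start at 0. Impact spans 7.38 to 10.31 and Slc38a2 9.23 to 11.64, while Hars2 spans 6.07 to 6.85 and Nars 9.58 to 9.88.

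Among the mitochondrial synthetases Hars2, the histidyl enzyme, had the lowest exercise difference in wild type and in the average over genotypes. Its values were 6.61, 6.85 and 6.61 in sedentary and 6.07, 6.21 and 6.60 in exercised wild-type muscle, and 6.37, 6.55 and 6.67 and then 6.08, 6.24 and 6.41 in ERRα-null muscle. The wild-type groups are separated only by a narrow gap, since exercised wild type 3 lay next to the sedentary arrays, and the ERRα-null groups overlapped. The difference was −0.39 ± 0.14 log2 in wild type (adjusted p = 0.190), −0.29 ± 0.14 in ERRα-null muscle (adjusted p = 0.426) and −0.34 ± 0.10 averaged over genotypes (0.789-fold, 95% interval −0.56 to −0.12, adjusted p = 0.0694). Without exercised wild type 3, an array of high Xist, the average was −0.42 (adjusted p = 0.0200), which passes the threshold. Without all 3 arrays of high Xist it was −0.50 (adjusted p = 0.0632), and with the tissue scores −0.87 (adjusted p = 0.120). Hars, the cytosolic histidyl enzyme, had an average difference of −0.06 ± 0.05 (adjusted p = 0.533). Hars and Hars2 are close relatives, and probes were not checked for shared sequence.

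Averaged over genotypes, 2 members were above and 4 below at an unadjusted p under 0.05, against 9.57% and 12.9% of all genes, and 0 were called, against 6.57% of all genes. Above 0 were 21 of 33 averages, against 48.0% of all genes. No member had all exercised arrays on one side of all sedentary ones, against 1.99% of all genes on the higher and 2.02% on the lower side. The 2 above, Iars and Rars, were cytosolic and the 4 below, Hars2, Iars2, Rars2 and Fars2, were mitochondrial. Iars2, the isoleucyl enzyme, was at 8.26, 8.40 and 8.42 in sedentary and 8.11, 8.39 and 8.29 in exercised wild-type muscle, and at 8.30, 8.31 and 8.47 and then 8.0, 8.12 and 8.16 in ERRα-null muscle. Only the ERRα-null groups were separated. The average was −0.18 ± 0.06 (adjusted p = 0.123). Rars2, the arginyl enzyme, was at 6.95, 7.02 and 7.03 and then 6.91, 6.97 and 6.92 in wild type, and at 6.87, 7.25 and 7.32 and then 7.04, 6.76 and 6.69 in ERRα-null muscle. Most of its spread was among the ERRα-null arrays, and both genotypes overlapped. The average was −0.19 ± 0.09 (adjusted p = 0.210), and −0.08 without the 3 arrays of high Xist. Fars2, the phenylalanyl enzyme, was at 7.62, 7.54 and 7.78 and then 7.46, 7.41 and 7.62 in wild type, and at 7.37, 7.53 and 7.52 and then 7.46, 7.27 and 7.29 in ERRα-null muscle. The states overlapped in both genotypes, and the average was −0.15 ± 0.07 (adjusted p = 0.220). Over all 15 mitochondrial synthetases 9 averages were above 0, with a median of 0.02, so in this fit these 4 did not stand for the group. Under alternative fits the median ran from −0.23 to 0.03, with 4 to 10 of the 15 above 0.

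After running, calls among the other genes of mitochondrial translation and tRNA charging were limited to Mtif3 and Sepsecs. Mtif3, a mitochondrial initiation factor, fell by 0.30 ± 0.06 averaged over genotypes (adjusted p = 0.0116) and by 0.35 ± 0.09 in wild type (adjusted p = 0.0480). Its wild-type values went from 7.11, 7.17 and 7.29 to 6.83, 6.87 and 6.83. Mtif3 was the 1 of 10 mitochondrial translation factors called in wild type, against 161 of all 13308 genes on the lower side. Sepsecs, which completes selenocysteinyl-tRNA, fell by 0.30 ± 0.07 averaged over genotypes (adjusted p = 0.0301). Of the 10 mitochondrial translation factors tested, 1 fell in that average, against 3.43% of all genes, and 0 rose. Of the 8 other synthetases and tRNA charging factors, 1 fell in it, Sepsecs, and 0 rose. With the tissue scores the values were −0.34 for Mtif3 and −0.45 for Sepsecs, neither called. Without the 3 arrays of high Xist adjusted p was 0.0729 and 0.265 for these averages, and 0.143 for Mtif3 in wild type. The wild-type call of Mtif3 ended without any single array other than exercised ERRα-null 1 and 3 (adjusted p 0.0507 to 0.176). The Sepsecs call ended without any single array other than sedentary wild type 2, sedentary ERRα-null 1, exercised wild type 3 and exercised ERRα-null 1 (0.0502 to 0.0805).

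In sedentary muscle the cytosolic and mitochondrial synthetases lay on opposite sides of wild type when ERRα was absent, without a single call. Of the 18 cytosolic genes 13 had an ERRα-null minus wild-type difference above 0, with a median of 0.06, and of the 15 mitochondrial genes 3 did, with a median of −0.15, beside 49.6% above 0 and a median of −0.00 over all genes. No member was called, against 0.0827% of all genes. At an unadjusted p under 0.05, 3 of 33 members were above, Lars, Qars and Vars, against 4.07% of all genes, and 2 below, Wars2 and Yars2, against 4.16%. The arrays did not overlap for Kars and Vars on the higher side, against 6.91% of all genes, and for Cars2, Fars2, Wars2 and Yars2 on the lower side, against 6.53%. The mitochondrial median was −0.08 without sedentary ERRα-null replicate 1, the array with the highest lymphocyte marker mean (7.81) and the lowest mitochondrial synthetase mean (6.71). With the tissue scores it was −0.21.

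Wars2, the mitochondrial tryptophanyl enzyme, was at 6.55, 6.73 and 6.75 in sedentary wild-type and 6.53, 6.35 and 6.40 in sedentary ERRα-null muscle. After exercise it was at 6.55, 6.52 and 6.54 and at 6.63, 6.59 and 6.54. The sedentary groups were separated by a narrow gap and the exercised groups met. The sedentary difference was −0.25 ± 0.08 (adjusted p = 0.409), and after exercise it was 0.05 ± 0.08 (adjusted p = 0.934). Wars, the cytosolic tryptophanyl enzyme and a gene known to be induced by interferon, was the most variable cytosolic member. Its values were 8.58, 8.71 and 8.59 in sedentary wild-type, 9.17, 8.63 and 9.04 in sedentary ERRα-null, 8.93, 8.88 and 8.60 in exercised wild-type and 9.14, 8.61 and 8.70 in exercised ERRα-null muscle. High and low arrays occurred within the same groups, except in sedentary wild type, where all 3 were low. The sedentary genotype difference was 0.32 ± 0.16 (95% interval −0.02 to 0.67, adjusted p = 0.635), the widest interval of this comparison on the higher side.

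After exercise, the mutant values lay slightly below the wild-type ones for most synthetases. Of the 18 cytosolic genes 6 were above 0, with a median of −0.04, and of the 15 mitochondrial genes 2, with a median of −0.07, beside 50.4% above 0 and a median of 0.00 over all genes. No member was called, against 0.376% of all genes. At an unadjusted p under 0.05, 2 of 33 members were lower, Nars and Yars2, against 6.64% of all genes, and 0 higher, against 3.75%. The arrays did not overlap for 3 members on the lower side, Nars, Nars2 and Yars2, against 9.31% of all genes, and for 0 on the higher side, against 6.64%.

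Nars encodes the cytosolic asparaginyl enzyme. It was at 9.82, 9.67 and 9.78 in sedentary and 9.88, 9.85 and 9.81 in exercised wild-type muscle, and at 9.74, 9.76 and 9.79 and then 9.58, 9.61 and 9.66 in ERRα-null muscle. The exercised ERRα-null arrays were the lowest of all 12. The genotype difference was 0.01 ± 0.06 in sedentary muscle and −0.23 ± 0.06 after exercise (0.854-fold, 95% interval −0.36 to −0.10, adjusted p = 0.142). The interaction was −0.24 ± 0.09 (adjusted p = 0.948). Averaged over states the difference was −0.11 ± 0.04 (adjusted p = 0.297). Without the 3 arrays of high Xist the difference after exercise was −0.29 (adjusted p = 0.545), with a single ERRα-null array left.

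Yars2, the mitochondrial tyrosyl enzyme, had the lowest adjusted p of the members for genotype averaged over states. It was at 7.06, 7.21 and 7.03 in sedentary and 7.38, 7.22 and 7.03 in exercised wild-type muscle, and at 6.74, 6.93 and 6.93 and then 6.90, 6.87 and 6.87 in ERRα-null muscle. All 6 wild-type arrays stood above all 6 ERRα-null arrays, as for 1.01% of all genes, and Yars2 was the 1 member of which this was true. The opposite order held for 0 members, against 0.496% of all genes. The difference was −0.23 ± 0.10 in sedentary muscle (adjusted p = 0.577), −0.33 ± 0.10 after exercise (adjusted p = 0.214) and −0.28 ± 0.07 averaged over states (0.823-fold, 95% interval −0.44 to −0.13, adjusted p = 0.0845). Without exercised wild type 3 the average was −0.33 (adjusted p = 0.0483), which passes the threshold, and without all 3 arrays of high Xist it was −0.32 (adjusted p = 0.281). Esrra itself fell by 0.80 ± 0.08 in the same average (adjusted p = 0.00121), with an adjusted p of 0.0581 without those 3 arrays. The Yars2 promoter window held no match to the ERR core.

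**Figure D4:**
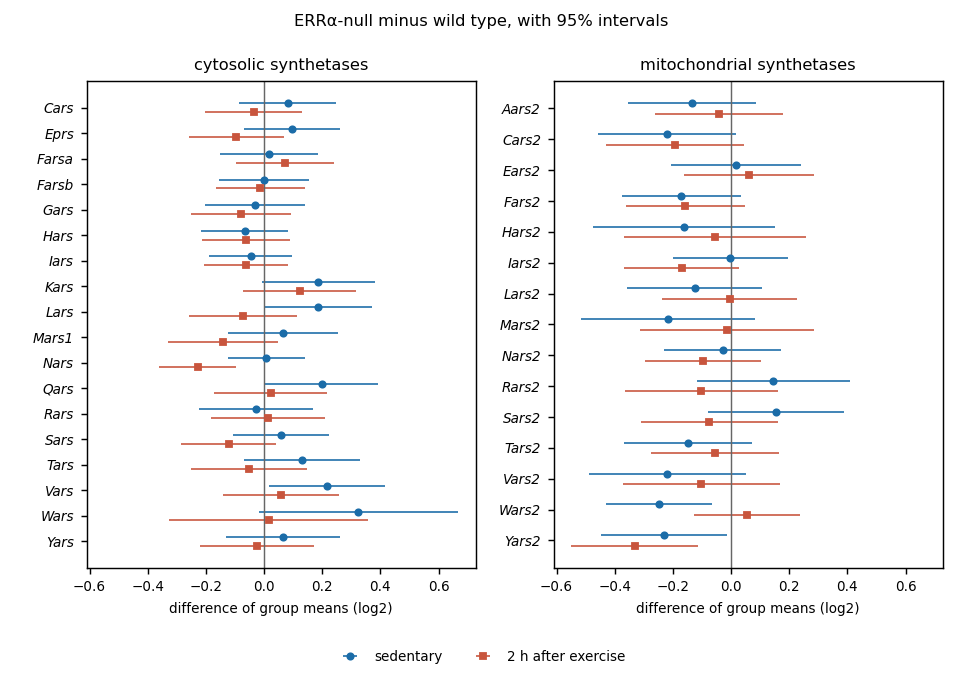
Points are ERRα-null minus wild-type differences of group means in log2 for the 33 tested synthetases, in sedentary muscle (circles) and 2 h after exercise (squares), with 95% intervals from the model over 3 arrays per group. In sedentary muscle 13 of 18 cytosolic points lie right of 0 and 12 of 15 mitochondrial points left of it; Yars2 lies left of 0 in both states.

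Averaged over states, 12 of the 15 mitochondrial synthetases were below 0, with a median of −0.10, and 10 of the 18 cytosolic ones above it, with a median of 0.01, beside 50.2% of all genes above 0. No member was called, against 1.43% of all genes. At an unadjusted p under 0.05, 1 member was above and 4 were below, against 5.18% and 7.19% of all genes. After Yars2 and Nars these were Cars2, Fars2 and Kars. Cars2, the cysteinyl enzyme, was at 7.04, 7.17 and 6.96 in sedentary and 6.93, 6.96 and 7.33 in exercised wild-type muscle, and at 6.79, 6.86 and 6.86 and then 6.80, 6.94 and 6.91 in ERRα-null muscle. The genotypes did not overlap at rest and met after exercise. The average was −0.21 ± 0.08 (adjusted p = 0.270). Fars2 had an average of −0.16 ± 0.07 (adjusted p = 0.321), and −0.07 without the 3 arrays of high Xist.

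Kars and Vars were on the higher side. Kars, whose product charges lysine in both compartments, was at 9.18, 9.26 and 9.34 in sedentary and 9.33, 9.30 and 9.38 in exercised wild-type muscle, and at 9.36, 9.35 and 9.64 and then 9.33, 9.52 and 9.54 in ERRα-null muscle. The difference averaged over states was 0.15 ± 0.06 (adjusted p = 0.330), with separated arrays at rest and overlap after exercise. Vars, the cytosolic valyl enzyme, was at 7.21, 7.26 and 7.20 in sedentary and 7.20, 7.19 and 7.43 in exercised wild-type muscle, and at 7.39, 7.39 and 7.54 and then 7.21, 7.44 and 7.34 in ERRα-null muscle. Again only the sedentary groups were separated. Its average was 0.14 ± 0.07 (adjusted p = 0.424).

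The mitochondrial translation factors lay lower in ERRα-null muscle than the synthetases did. Of the 10 tested, 9 were below 0 averaged over states, with a median of −0.20, and after exercise all 10 were, with a median of −0.26. Gfm2, the factor that recycles mitochondrial ribosomes, was the 1 gene of the list called, against 0.999% of all genes lower, with a fall of 0.34 ± 0.07 averaged over states (adjusted p = 0.0320). Its values were 8.78, 8.74 and 8.65 in sedentary and 8.91, 8.81 and 8.92 in exercised wild-type muscle, and 8.26, 8.53 and 8.64 and then 8.37, 8.55 and 8.48 in ERRα-null muscle. All wild-type arrays stood above all ERRα-null arrays. Gatb, a subunit of the mitochondrial amidotransferase that finishes glutaminyl-tRNA, had an average of −0.26 ± 0.06 (adjusted p = 0.0809). Gpt2, a mitochondrial alanine transaminase of the amino acid response list, fell by 0.28 ± 0.06 (adjusted p = 0.0489). Without the 3 arrays of high Xist, Gfm2 was at −0.37 (adjusted p = 0.233) and Gpt2 at −0.26 (adjusted p = 0.331). Either call also ended without single arrays, that of Gfm2 without any but sedentary wild type 3, sedentary ERRα-null 1 and 3 and exercised wild type 2 (adjusted p 0.0540 to 0.0911). For Gpt2 it was any but exercised wild type 1 (0.0561 to 0.122).

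The exercise difference itself was compared between genotypes by the interaction term. A value above 0 means a higher exercise difference in the mutants. Such values were found for 3 of the 18 cytosolic synthetases, with a median of −0.14, and for 10 of the 15 mitochondrial ones, with a median of 0.05, beside 49.4% and −0.00 over all genes. For the ATF4-listed synthetases it was 0 of 12, with a median of −0.18. Of the amino acid response genes 20 of 26 were below 0, with a median of −0.29. No member was called, against 0.00751% of all genes, while at an unadjusted p under 0.05 Wars2 (0.30 ± 0.12) was the 1 member higher, against 1.92% of all genes, and Nars the 1 lower, against 3.20%. Over all genes the interaction gave 1 call. All 12 ATF4-listed values were also below 0 without the 3 arrays of high Xist, and 11 of 12 did with the tissue scores. Wars had the lowest value, −0.31 ± 0.22, and the widest interval, from −0.79 to 0.18.

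The same amino acid is charged by separate genes in the cytosol and the mitochondrion for 14 pairs of tested members. The cytosolic partner had the higher exercise difference in 12 of 14 pairs in wild type, with a median gap of 0.13 log2, and in 5 of 14 in ERRα-null muscle, with a median of −0.05. For genotype in sedentary muscle it was the higher in 11 of 14, with a median of 0.23, and after exercise in 7 of 14, with a median of −0.00. The tryptophanyl pair had the widest gap in sedentary muscle, 0.57, followed by the valyl pair with 0.44. The histidyl and tryptophanyl pairs had the widest in wild type after exercise, 0.33 and 0.32. The comparisons share groups, so these counts are not independent of each other, and the partners were measured on the same arrays.

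The remaining members had exercise differences within −0.2 and 0.2 log2 in both genotypes. Farsa and Farsb encode the subunits of the cytosolic phenylalanyl enzyme, and their wild-type exercise differences were −0.07 and 0.08. Gars, the glycyl enzyme, had 0.02 in wild type and −0.02 in ERRα-null muscle, and Yars 0.02 and −0.07. Sars, the seryl enzyme, had 0.12 and −0.06, Qars, the glutaminyl enzyme, 0.12 and −0.06, and Cars 0.11 and −0.01. Among mitochondrial members Aars2 had 0.08 and 0.17, Ears2 0.08 and 0.12, Lars2 0.03 and 0.15 and Tars2 −0.03 and 0.06. Sars2 had 0.14 and −0.09, Mars2 −0.08 and 0.13, Vars2 −0.19 and −0.08 and Nars2 −0.03 and −0.10. Genotype differences of these members in sedentary muscle ran from −0.22 for Mars2 and Vars2 to 0.20 for Qars. None of these differences passed the test. Pars2, which was not tested, ran from 5.11 to 5.70 over the 12 arrays.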

How the data were processed

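The deposited table holds the authors' log2 values for each probeset, made with RMA in Affymetrix Expression Console, with Transcriptome Analysis Console also named, per the submitters' processing notes. RMA forces arrays onto a common distribution, so differences are relative to the bulk of transcripts. Genome build and tool versions: not given in the sources used here. The platform table gives 1 symbol to 23521 of 41345 probesets, several to 1814 and none to 16010, and 23328 of the first matched RefSeq. Array medians ran from 5.15 to 5.26, Pearson r over 66 array pairs from 0.970 to 0.987, and none was identical. The number of arrays limits the precision.

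limma 3.58.1 in R 4.3.3 fitted 4 group means to 12 arrays (8 residual degrees of freedom). Moderated variances came from eBayes, trended on intensity, and p-values were adjusted by Benjamini-Hochberg over 13308 genes. Tests are two-sided, values after ± are standard errors, and p-values measure the spread between these arrays. The model was tested on simulated data. By rule, per-array values are given for called members and the 6 of smallest p in each averaged comparison, and other listed genes are named if called, if among up to 4 of smallest p, or as Esrra, Atf4 and Impact. Per-array values of Eprs, Mars1, Wars and Wars2, and the genes Asns, Aimp1 and Eef1e1, were added after their values were seen. Members and lists were chosen with earlier results of these data known. Alternatives concern the filter, probesets, centring, trend, arrays fitted, single arrays left out, high Xist, tissue scores and the replicate block. Replicate numbers counted as pairing only for genotype after exercise, where same-numbered exercised arrays deviated together (r = 0.312, 0.207 and 0.174). With that block no member was called.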

Additional observations from a re-analysis of the deposited data

How the results depend on the processing

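No synthetase was called under any alternative in 5 of the 7 comparisons. For genotype averaged over states, leaving out single arrays gave 0 to 1 called members, the 1 being Yars2 without exercised wild type 3. For exercise averaged over genotypes it gave 0 to 1, the 1 being Hars2 without that same array, and with the replicate block Hars2 was again the 1 member called (adjusted p = 0.0354). Of the synthetase values under alternatives, 525 kept their direction and side of the threshold, 3 passed it newly and 0 reversed. Of the values of other genes under alternatives, 385 kept direction and side, 141 lost the threshold, 2 passed it newly, both of Atf4 for genotype after exercise, and 1 reversed, Vldlr, at 0.1974 for exercise averaged over genotypes with the tissue scores. The cause of these changes was not tested.

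Counts over all genes moved more. For genotype in sedentary muscle 11 genes became 3 with the replicate block, 4 with only the arrays compared and 4 without the arrays of high Xist, and single arrays left out gave 1 to 11. For genotype after exercise 50 became 23 without the filter on dim genes, 17 without the trend, 23 with the replicate block, 5 with only the arrays compared and 5 without the arrays of high Xist, and leaving out single arrays gave 2 to 105. A blocked fit of only the exercised arrays gave 73. For exercise in wild type 457 became 232 with only the arrays compared, 230 without the arrays of high Xist and 34 with the tissue scores, and single arrays gave 221 to 502. For exercise in ERRα-null muscle 85 became 54 without the filter, 16 without the arrays of high Xist and 13 with the tissue scores, and single arrays gave 32 to 109. The interaction gave 0 to 6. Genotype averaged over states, 190 genes, gave 6 without the arrays of high Xist and 79 to 251 without single arrays. Exercise averaged over genotypes, 874 genes, gave 172 and, with the tissue scores, 29, and 543 to 933 without single arrays. Outside genotype after exercise, equal replicate numbers did not pair the arrays by the criterion used.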
